A study of Gallus gallus with 12 samples.

Results

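Heat shock proteins and folding chaperones were described in Pectoralis major, the breast muscle, of chickens on 3 diets. The genes were taken by symbol from the platform annotation: every symbol beginning with HSP or DNAJ, every CCT symbol followed by a digit, and TCP1, PPID, HSF1, HSF2, HSF3, AHSA1, STIP1 and CRYAB. This gave 66 of the 11528 genes that had a transcript cluster (the array's unit for 1 gene or transcript) with a single symbol, and 59 of the 66 were bright enough to be tested. No row with a single symbol carried HSF1, STIP1, HSP90AA1 or HSPE1, so these are not analysed here. Ross PM3 broilers were sampled at day 36. They received a diet restricted in phosphorus and calcium with added phytase, an enzyme that frees phosphate from plant phytate, or the same restricted diet without phytase, or a normal diet. Every one of the 12 arrays held RNA pooled from 4 birds, with 4 pools per diet, so SDs are spreads between pools and a bird of its own was never measured. How birds were assigned to a pool is not in the labels, and p-values therefore measure only the spread between these pools. Levels are the authors' deposited log2 values. A level depends on the probes of its row, so values are compared between diets within a gene and not between genes.

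Chaperones bind unfolded or partly folded proteins and release them in cycles, most of them driven by ATP. Hsp70 proteins take up short stretches of a client, J proteins bring clients to Hsp70 and set off its ATPase, Hsp90 acts on late folding steps of kinases and receptors with the help of co-chaperones, and chaperonins close a whole client inside a barrel. Small heat shock proteins hold damaged clients without ATP and in muscle sit at the Z-disc, where they guard titin and filamin. Heat shock factors are the transcription factors that switch many of these genes on during heat or protein stress, and in chicken HSF3 shares this task with HSF1.

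On all 12 arrays fast muscle genes were bright: ACTA1, skeletal alpha-actin, lay between 13.54 and 13.64, and TNNC2, fast troponin C, between 12.31 and 12.64. Of 9 fast muscle markers 4 had a row, and their summed signal on the log2 scale ran from 14.60 to 14.67 with phytase, from 14.56 to 14.69 in restricted pools and from 14.58 to 14.73 in normal pools. HINTW, a gene of the female-specific W chromosome, lay between 7.57 and 8.08 on 4 arrays (restricted replicates 1 and 2, phytase replicates 1 and 4) and between 2.27 and 2.76 on the other 8. Restricted replicate 1 had the lowest median correlation with the other arrays, 0.965, and the lowest array weight in limma, 0.49. In bulk muscle, fewer cells of a type and less RNA per cell cannot be told apart.

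No chaperone gene passed the test between diets. With limma and Benjamini-Hochberg adjustment over 12482 transcript clusters, 0 of 59 members passed 0.05 in each of the 3 contrasts and in the F test over the 3 diets, where 0.0% of all transcript clusters passed as well. At an unadjusted p under 0.05 the count was 6 members in restricted against normal pools (10.2%, against 5.3% of all transcript clusters) and 5 in phytase against restricted pools (8.47%, against 8.83%). In phytase against normal pools the count was 0 (0.0%, against 4.32%, of which 2.22% were lower and 2.1% higher), and over the 3 diets it was 5 (8.47%, against 5.97%). The median spread between pools of a diet was 0.22 for the members and 0.24 for all transcript clusters (SD, log2).

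The differences of the members leaned to one side. Restricted pools were lower than normal pools for 46 of 59 members (78.0%, against 50.9% of all transcript clusters) and higher for 12 (48.6% of all). Phytase pools were higher than restricted pools for 38 of 59 (64.4%, against 48.3%) and lower for 21 (51.2% of all). Phytase pools were lower than normal pools for 33 of 59 (55.9%, against 49.9%). The differences were small: the median over members was -0.12 between restricted and normal pools, 0.13 between phytase and restricted pools and -0.03 between phytase and normal pools, on the log2 scale, and the median over all transcript clusters lay between -0.01 and 0 in the 3 contrasts. The first and second of these contrasts share the restricted pools, so a low value in those pools enters both with opposite sign. The 6 members counted in restricted against normal pools were PPID, DNAJB14, DNAJC7, HSPD1, DNAJC8 and HSPB8, and all 6 were lower (lower in 2.71% and higher in 2.6% of all transcript clusters). Of the 5 counted in phytase against restricted pools, PPID, DNAJB4, DNAJC7 and HSPD1 were higher (5.03% of all) and DNAJC30 was lower (3.8% of all).

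**Figure D1:**
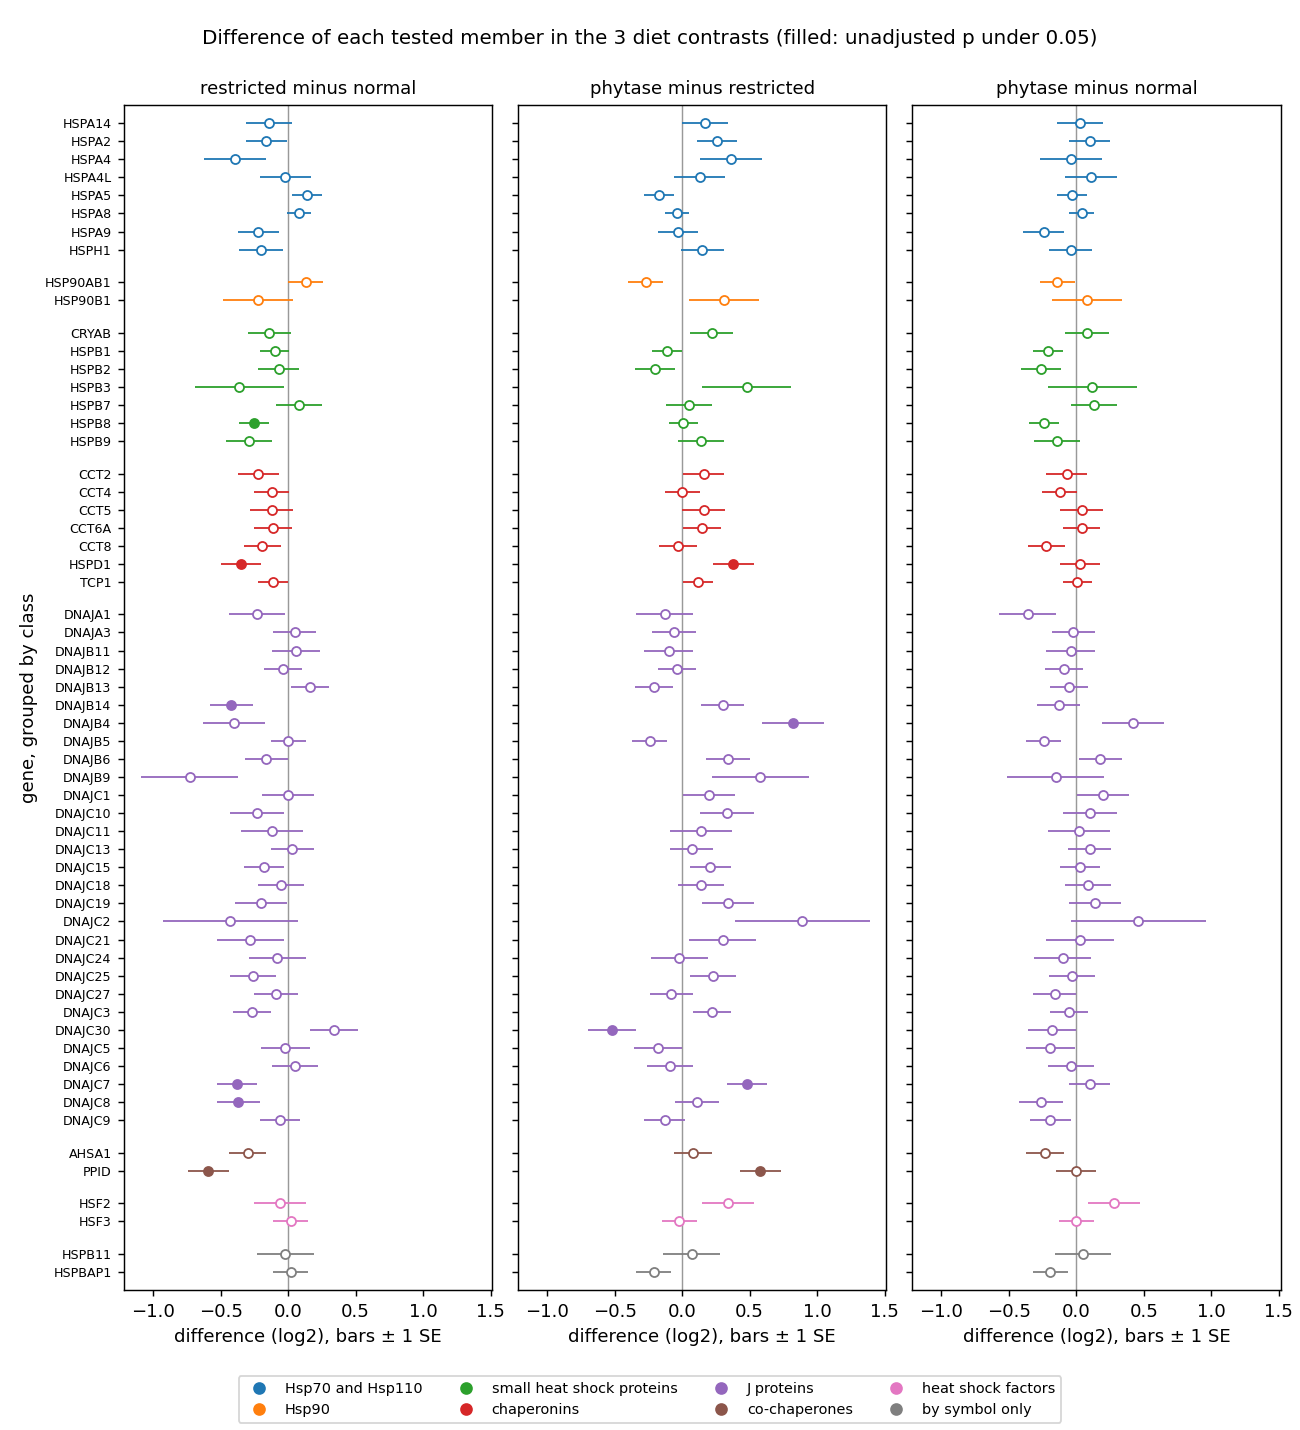
Each point is the difference of 1 tested member between 2 diets on the log2 scale, with bars of 1 standard error, in panels for restricted minus normal, phytase minus restricted and phytase minus normal. Filled points have an unadjusted p under 0.05 (6, 5 and 0 members), and 46 of 59 points in the left panel lie below 0.

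The size of this lean depended on restricted replicate 1. A score was formed for each pool as the mean over the 59 members of the deviation from each gene's mean over 12 arrays. Scores were 0.12, 0.09, 0.03 and -0.11 in phytase replicates 1 to 4, -0.24, -0.10, 0.05 and -0.06 in restricted replicates 1 to 4, and -0.01, -0.02, 0.09 and 0.16 in normal replicates 1 to 4. Restricted replicate 1 was the lowest of the 12, restricted replicate 3 lay among the normal pools, and the 3 diets overlapped. Restricted replicate 1 held the lowest value of the 12 arrays for 19 of 59 members (32.2%), against 17.2% of all transcript clusters. Without it, 37 of 59 members were lower in restricted than in normal pools (62.7%, against 49.6% of all), the median was -0.09, and 3 members had an unadjusted p under 0.05 (5.08%, against 5.92% of all). The count of 6 was 2 without normal replicate 3 (3.56% of all) and 2 without normal replicate 4 (3.84% of all). Between phytase and restricted pools the median was 0.06 without restricted replicate 1, while 37 of 59 members were higher (62.7%, against 49.2%).

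Restricted replicate 1 is also 1 of the 4 arrays with HINTW signal. No normal pool carried that signal. Fits without the 4 arrays therefore rest on restricted replicates 3 and 4, phytase replicates 2 and 3, and all normal pools. In that setting restricted pools were lower than normal pools for 37 of 59 members (62.7%, against 49.8% of all), with a median of -0.04. An unadjusted p under 0.05 was then found for 3 members (5.08%, against 5.86% of all). Phytase pools were then higher than restricted pools for 35 of 59 (59.3%, against 49.3%), with a median of 0.07. The slow muscle marker score was low in restricted replicate 1 too, at -0.49 over 11 tested genes, against 0.00, -0.10 and -0.03 in the other restricted pools and -0.25 to 0.20 in normal pools. The markers did not move alike. MYH7, a slow myosin gene, was at 4.0 there, above its 12-array mean of 3.81. The other tested markers lay below their means, by little for TNNC1 (12.25 against 12.28) and by more for ANKRD1 (8.94 against 10.07). Of 14 slow muscle markers 12 had a row, with MYL3 under the brightness limit, and their summed signal ran from 13.27 to 13.33 with phytase, from 13.08 to 13.27 in restricted pools and from 13.18 to 13.35 in normal pools. Most of that sum came from TNNC1, CASQ2 and ANKRD1, with 12-array means of 12.28, 11.73 and 10.07. MYH7, MYL2 and MYL3 were dim, at 3.81, 2.73 and 1.98, so the sum is no level of slow fibres. Of the 12 erythroid markers 6 had a row, with 4 of them under the limit, and the summed signal ran from 7.80 to 8.94 with phytase, from 9.0 to 10.63 in restricted pools and from 7.84 to 8.14 in normal pools. Of 7 macrophage and lymphocyte markers 6 had a row, and their score used the 4 that were tested. These and the endothelial markers (4 of 5) had their lowest score of the 12 pools in restricted replicate 1, at -0.75 and -0.36. Fibroblast markers (5 of 7 with a row) scored -0.39 there, with normal replicates 3 and 4 lower at -0.55 and -0.42. Their summed signal ran from 12.15 to 12.85 with phytase, from 12.24 to 13.06 in restricted pools and from 11.64 to 12.65 in normal pools, and all 5 were higher in restricted than in normal pools (median 0.25). Adipocyte markers (3 of 6 with a row) scored 0.33 in restricted replicate 1. All 3 were higher in restricted than in normal pools (median 0.53, with PLIN1, the lipid droplet coat protein, at 0.75 ± 0.19, SE, limma adjusted p = 0.894) and all 3 were lower in phytase than in restricted pools (median -0.25). Their summed signal ran from 7.77 to 8.27 with phytase, from 8.17 to 8.55 in restricted pools and from 7.57 to 8.37 in normal pools. The summed signal of macrophage and lymphocyte markers ran from 9.55 to 10.27 with phytase, from 9.63 to 10.56 in restricted pools and from 9.49 to 10.18 in normal pools. That of endothelial markers ran from 7.26 to 7.62 with phytase, from 6.79 to 7.71 in restricted pools and from 7.12 to 7.31 in normal pools. The part of these markers and of HINTW signal in the direction of the chaperones was not tested.

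**Figure D2:**
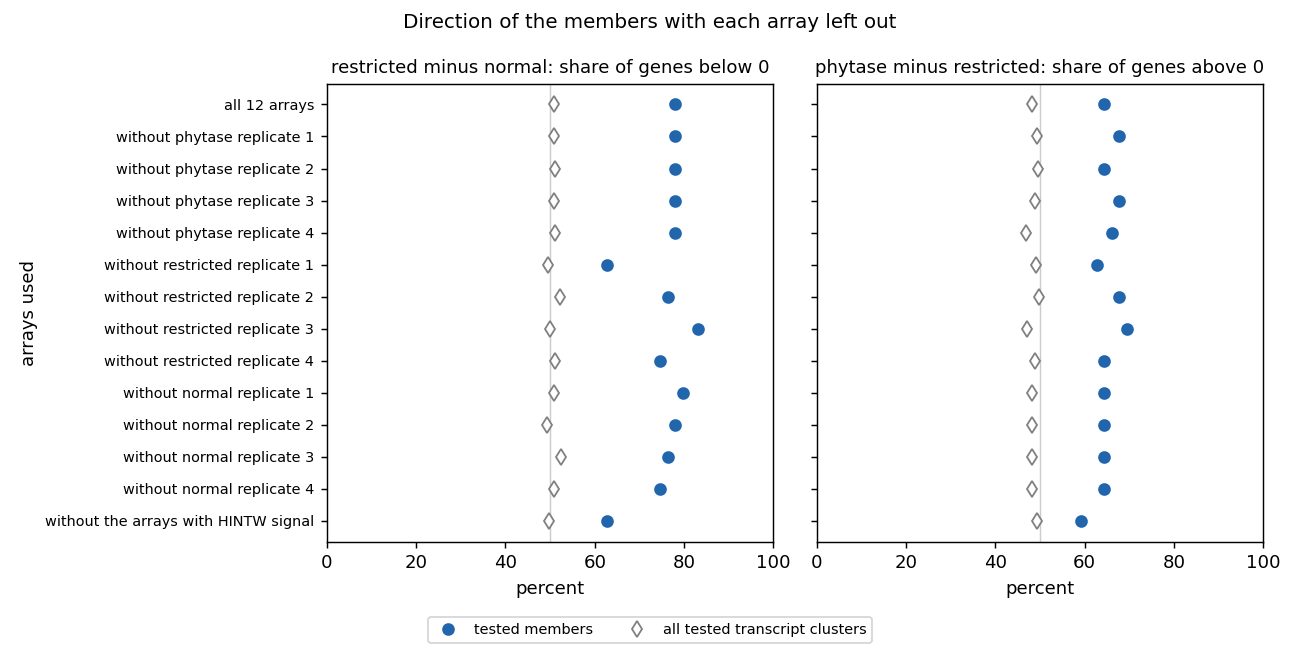
Filled circles give the percent of tested members, and open diamonds the percent of all tested transcript clusters, below 0 between restricted and normal pools (left) and above 0 between phytase and restricted pools (right), with all 12 arrays and with arrays left out. In the left panel the members stand at 62.7% without restricted replicate 1 and without the 4 arrays with HINTW signal, against 78.0% with all arrays.

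The member with the smallest p was PPID, a cyclophilin (prolyl isomerase) that docks on the tail of Hsp90. PPID levels were 5.74, 5.48, 5.53 and 5.25 in phytase pools, 4.82, 4.81, 5.11 and 4.92 in restricted pools, and 5.39, 5.27, 5.83 and 5.53 in normal pools. All 4 restricted pools lay below all pools of both other diets, and phytase and normal pools overlapped. Restricted and normal pools differed by -0.59 ± 0.15 (SE), a 1.51-fold difference, with a 95% interval of -0.92 to -0.26 (limma adjusted p = 0.894). Phytase and restricted pools differed by 0.58 ± 0.15 (SE), with an interval of 0.26 to 0.91 (limma adjusted p = 0.519). Phytase and normal pools differed by 0.00 ± 0.15 (SE), with an interval of -0.33 to 0.32. Over the 12 fits that each left out 1 array, its difference ran from -0.67 to -0.48 between restricted and normal pools and from 0.50 to 0.67 between phytase and restricted pools, and the values were -0.49 and 0.49 when the 4 arrays with HINTW signal were dropped.

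Pools that did not overlap were few. Between restricted and normal pools 2 of 59 members were lower with no overlap, PPID and DNAJC3 (3.39%, against 1.15% of all), and 0 were higher (0.0%, against 1.16%). Between phytase and restricted pools PPID was the 1 member higher with no overlap (1.69%, against 1.64%) and DNAJC30 the 1 tested member lower (1.69%, against 2.03%). Between phytase and normal pools HSPB8 was the 1 member lower with no overlap (1.69%, against 1.51%), and 0 were higher (0.0%, against 1.54%). AHSA1, which stimulates the ATPase of Hsp90 and was the other co-chaperone, averaged 6.64 ± 0.11 in phytase, 6.56 ± 0.25 in restricted and 6.87 ± 0.17 in normal pools (SD, n = 4 each), and restricted and normal pools differed by -0.30 ± 0.14 (SE), with overlapping pools.

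**Figure D3:**
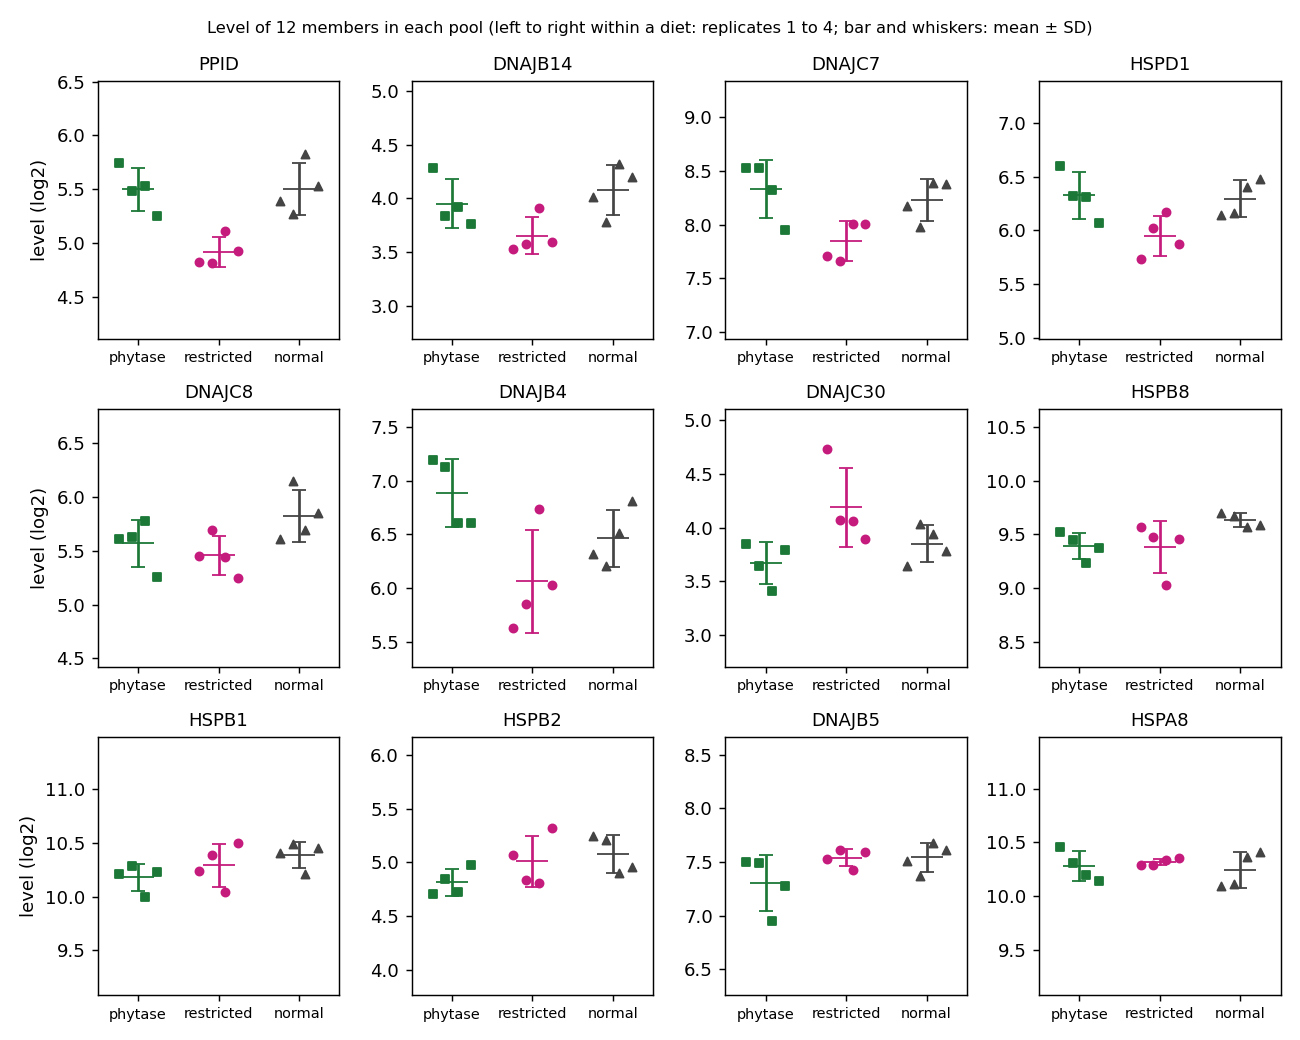
Levels of 12 members on the log2 scale in each pool of the phytase (squares), restricted (circles) and normal diet (triangles), with mean and SD. The 4 restricted pools of PPID, between 4.81 and 5.11, lie below the 8 others, HSPB8 with phytase, between 9.23 and 9.52, lies below its normal pools, and HSPA8 stays between 10.09 and 10.46.

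Of the Hsp70 and Hsp110 class 8 of 10 members were tested, and 6 of 8 were lower in restricted than in normal pools, with a median of -0.15. In that contrast 0 of 8 had an unadjusted p under 0.05 (5.3% of all transcript clusters). Without the 4 arrays with HINTW signal 4 were lower and 4 higher, with a median of -0.02. HSPA8, the constitutive cytosolic Hsp70, had the smallest spread between pools of a diet in the class (SD 0.13), at 10.46, 10.31, 10.20 and 10.14 in phytase pools, 10.29, 10.29, 10.34 and 10.35 in restricted pools, and 10.09, 10.11, 10.36 and 10.41 in normal pools. The restricted pools lay within the range of both other diets, and restricted and normal pools differed by 0.08 with an interval of -0.13 to 0.28. HSPA5, also called BiP, the Hsp70 of the endoplasmic reticulum, was at 8.54, 8.40, 8.22 and 8.24 in phytase pools, 8.34, 8.54, 8.43 and 8.77 in restricted pools, and 8.31, 8.44, 8.33 and 8.45 in normal pools. HSPA5 had a difference of 0.14 ± 0.11 (SE) between restricted and normal pools, with an interval that held 0. HSPA9, the mitochondrial Hsp70, averaged 7.06 ± 0.18 in phytase, 7.09 ± 0.17 in restricted and 7.30 ± 0.24 in normal pools (SD, n = 4 each). HSPA4, an Hsp110-type exchange factor that reloads Hsp70 with ATP, had a difference of -0.39 ± 0.23 (SE) between restricted and normal pools and 0.36 ± 0.23 (SE) between phytase and restricted pools. HSPH1, the Hsp110 exchange factor induced by heat, had differences of -0.20 ± 0.16 and 0.15 ± 0.16 (SE) in the same contrasts. HSPA2, an Hsp70 of the cytosol that RefSeq also lists as HSP70, averaged 9.12 ± 0.20 in phytase, 8.86 ± 0.14 in restricted and 9.02 ± 0.33 in normal pools (SD, n = 4 each). HSPA4L and HSPA14 had differences of -0.02 and -0.14 between restricted and normal pools. HSPA12A and HSPA13 were under the brightness limit of 2.67, with means of 2.54 and 2.16.

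With all arrays, the 2 Hsp90 genes had differences of opposite sign. HSP90AB1, the constitutive cytosolic Hsp90, was at 6.58, 6.13, 6.36 and 6.43 in phytase pools, 6.45, 6.59, 6.73 and 6.81 in restricted pools, and 6.46, 6.56, 6.65 and 6.38 in normal pools, a difference of -0.27 ± 0.13 (SE) between phytase and restricted pools and 0.13 ± 0.13 (SE) between restricted and normal pools. HSP90B1, GRP94, the Hsp90 of the endoplasmic reticulum that folds integrins and insulin-like growth factors, was at 8.10, 8.39, 8.10 and 7.69 in phytase pools, 6.98, 7.48, 8.04 and 8.55 in restricted pools, and 7.97, 7.93, 8.0 and 8.04 in normal pools. Restricted pools of HSP90B1 thus spread over a wide range, with an SD of 0.68 against 0.05 in normal pools. Their mean difference from normal pools, -0.22 ± 0.26 (SE), lay within that spread. Without restricted replicate 1 both genes were higher in restricted than in normal pools, by 0.2 for HSP90AB1 and 0.04 for HSP90B1. Without the arrays with HINTW signal these differences were 0.26 and 0.31. The sign of the HSP90B1 difference therefore depended on the arrays kept.

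All 7 chaperonin genes were lower in restricted than in normal pools, with differences from -0.35 to -0.11 and a median of -0.12. Of the 7, 1, HSPD1, had an unadjusted p under 0.05 (5.3% of all transcript clusters). Without restricted replicate 1, 6 of 7 were lower, with a median of -0.08. Likewise 6 of 7 were lower without the 4 arrays with HINTW signal. Between phytase and restricted pools the chaperonin median was 0.15 with all arrays and 0.01 without restricted replicate 1. HSPD1, Hsp60, forms the barrel of the mitochondrial matrix. Its levels were 6.60, 6.32, 6.31 and 6.07 in phytase pools, 5.73, 6.02, 6.17 and 5.87 in restricted pools, and 6.14, 6.16, 6.40 and 6.48 in normal pools. Restricted replicate 3 overlapped the normal pools and the other 3 restricted pools lay below them. Restricted and normal pools differed by -0.35 ± 0.15 (SE), a 1.27-fold difference (limma adjusted p = 0.904), and phytase and restricted pools by 0.38 ± 0.15 (SE), a 1.30-fold difference (limma adjusted p = 0.52). The other 6 chaperonin genes encode subunits of TRiC, the cytosolic chaperonin that folds actin and tubulin. TCP1, its alpha subunit, was at 6.28, 6.21, 6.29 and 6.43 in phytase pools, 6.08, 6.27, 6.27 and 6.09 in restricted pools, and 6.15, 6.37, 6.27 and 6.37 in normal pools, the narrowest spread between pools of a diet in the class, with an SD of 0.10. CCT2, CCT4, CCT5, CCT6A and CCT8 had differences of -0.22, -0.12, -0.12, -0.11 and -0.19 between restricted and normal pools, each with an interval that held 0. Restricted replicate 1 was the lowest of the 12 pools for HSPD1, TCP1, CCT2 (6.10), CCT5 (6.21) and CCT6A (6.56), but not for CCT4 and CCT8. The chaperonin score of that pool was -0.34 against 0.01, -0.03 and -0.05 in the other restricted pools.

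**Figure D4:**
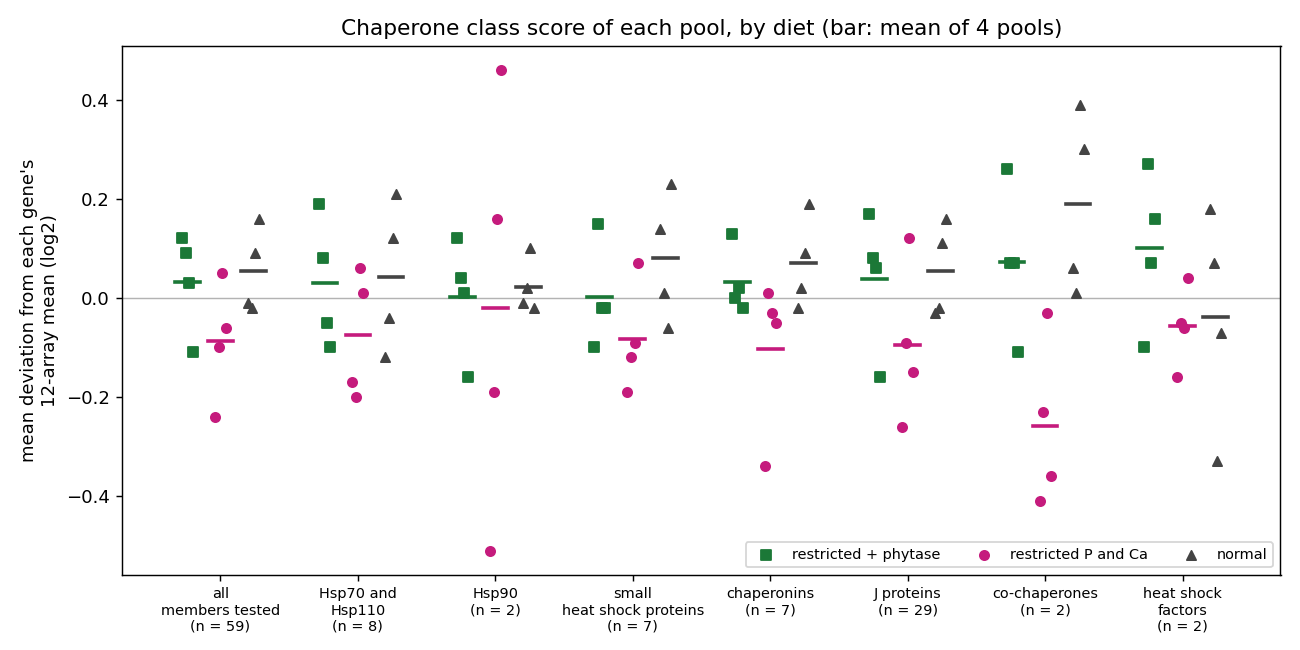
Each point is 1 pool's mean deviation from each gene's 12-array mean (log2), for all tested members and for each chaperone class, with phytase pools as squares, restricted pools as circles and normal pools as triangles, and a bar for the mean of 4 pools. Restricted replicate 1 is the lowest point for all members (-0.24), the Hsp90 class (-0.51), the small heat shock proteins (-0.19), the chaperonins (-0.34), the J proteins (-0.26) and the co-chaperones (-0.41). All 4 restricted pools lie below all normal pools for the co-chaperones and no other class shown, a class of 2 genes that holds PPID.

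Small heat shock proteins had 7 tested members, of which 6 were lower in restricted than in normal pools (median -0.14) and 4 lower in phytase than in normal pools (median -0.14). The direction of the second contrast turned without normal replicate 4, where 3 were lower and 4 higher (median 0.02). Without the 4 arrays with HINTW signal 4 of 7 were lower in restricted than in normal pools (median -0.02). HSPB8, which works with BAG3 to hand damaged Z-disc proteins to autophagy, was at 9.52, 9.45, 9.23 and 9.37 in phytase pools, 9.57, 9.48, 9.03 and 9.46 in restricted pools, and 9.70, 9.67, 9.57 and 9.59 in normal pools. All 4 phytase pools lay below all normal pools, and restricted replicate 1 tied with the lowest normal pool. Phytase and normal pools differed by -0.24 ± 0.11 (SE), with an interval of -0.49 to 0.01 (limma adjusted p = 0.984), and restricted and normal pools by -0.25 ± 0.11 (SE), with a limma adjusted p = 0.904. Both of these contrasts use the normal pools. HSPB1, a small heat shock protein that also binds actin filaments, was at 10.21, 10.29, 10 and 10.23 in phytase pools, 10.24, 10.39, 10.04 and 10.5 in restricted pools, and 10.41, 10.49, 10.21 and 10.45 in normal pools. Its difference between phytase and normal pools was -0.21 ± 0.11 (SE), with overlap through normal replicate 3.

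HSPB2 is a muscle small heat shock protein that assembles with HSPB3. It was at 4.71, 4.85, 4.72 and 4.98 in phytase pools, 5.07, 4.84, 4.81 and 5.32 in restricted pools, and 5.25, 5.21, 4.90 and 4.96 in normal pools, a difference of -0.26 ± 0.15 (SE) between phytase and normal pools. CRYAB, alpha-B crystallin, which guards desmin and titin, was at 6.69, 7.28, 7.08 and 7.19 in phytase pools, 6.42, 6.98, 6.90 and 7.06 in restricted pools, and 6.92, 7.02, 6.94 and 7.04 in normal pools. The lowest CRYAB value was again that of restricted replicate 1, and the normal pools of CRYAB lay close together (SD 0.06, n = 4). HSPB3 varied widely between pools of a diet (SD 0.56), and its difference between restricted and normal pools was -0.36 ± 0.33 (SE). HSPB9 averaged 7.74 ± 0.11 in phytase, 7.6 ± 0.22 in restricted and 7.89 ± 0.36 in normal pools (SD, n = 4 each). HSPB7, which binds filamin C in heart and muscle, was the 1 small heat shock gene higher in restricted than in normal pools, by 0.08 ± 0.17 (SE).

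J proteins were the largest class, with 34 members (2 of type A, 9 of type B and 23 of type C) and 29 tested. In restricted against normal pools 22 of 29 were lower and 6 higher, with a median of -0.12 (17 lower and 12 higher without restricted replicate 1), and in phytase against restricted pools 17 were higher and 12 lower, with a median of 0.14. Without the 4 arrays with HINTW signal 18 were lower and 11 higher in restricted against normal pools, with a median of -0.06. The median in restricted against normal pools was -0.07 without restricted replicate 4. In phytase against restricted pools the median was 0.05 without phytase replicate 1, 0.09 without phytase replicate 2, 0.06 without phytase replicate 3 and 0.04 without restricted replicate 4. In restricted against normal and in phytase against restricted pools 3 of 29 each had an unadjusted p under 0.05 (5.3% and 8.83% of all transcript clusters). DNAJA1, a main partner of HSPA8 in the cytosol, was at 8.59, 7.84, 7.96 and 7.70 in phytase pools, 8.22, 8.24, 8.35 and 7.81 in restricted pools, and 8.01, 8.16, 8.70 and 8.67 in normal pools. Its differences were -0.23 ± 0.21 (SE) between restricted and normal pools and -0.36 ± 0.21 (SE) between phytase and normal pools, both with overlap.

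DNAJB4, a J protein of muscle and other tissues that serves Hsp70 in the cytosol, had the smallest p among J proteins between phytase and restricted pools. It was at 7.19, 7.13, 6.61 and 6.61 in phytase pools, 5.63, 5.85, 6.74 and 6.03 in restricted pools, and 6.32, 6.21, 6.51 and 6.81 in normal pools. Restricted replicate 3 lay above 2 phytase pools, and the other 3 restricted pools lay below all phytase and all normal pools. Phytase and restricted pools differed by 0.82 ± 0.23 (SE), a 1.77-fold difference (limma adjusted p = 0.519), and phytase and normal pools by 0.42 ± 0.23 (SE), with a limma adjusted p = 0.984. Without the 4 arrays with HINTW signal the phytase and restricted difference was 0.48. DNAJC7, also TPR2, which carries clients between Hsp70 and Hsp90, was at 8.53, 8.53, 8.32 and 7.95 in phytase pools, 7.71, 7.66, 8.01 and 8.01 in restricted pools, and 8.17, 7.98, 8.39 and 8.38 in normal pools. Phytase replicate 4 and normal replicate 2 were the pools that overlapped the restricted ones. DNAJC7 differed by -0.38 ± 0.15 (SE) between restricted and normal pools (limma adjusted p = 0.904), and by -0.22 without the 4 arrays with HINTW signal. Between phytase and restricted pools the DNAJC7 difference was 0.48 ± 0.15 (SE), with a limma adjusted p = 0.519.

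DNAJB14, a J protein of the endoplasmic reticulum membrane, was at 4.28, 3.84, 3.92 and 3.76 in phytase pools, 3.53, 3.58, 3.91 and 3.59 in restricted pools, and 4.01, 3.78, 4.32 and 4.20 in normal pools. Restricted replicate 3 stood above the other restricted pools and overlapped normal replicate 2. Restricted and normal pools differed by -0.42 ± 0.16 (SE), with a limma adjusted p = 0.904. With 16 added to the linear value before the logarithm, which damps dim signals, that difference was -0.20. DNAJB14 had 3 rows, and its 2 dimmer rows, both under the brightness limit, gave -0.24 ± 0.24 and 0.21 ± 0.17 (SE). DNAJC8, a J protein tied to the spliceosome, was at 5.61, 5.63, 5.78 and 5.26 in phytase pools, 5.45, 5.69, 5.44 and 5.25 in restricted pools, and 5.61, 6.15, 5.69 and 5.85 in normal pools, a difference of -0.37 ± 0.16 (SE) between restricted and normal pools (limma adjusted p = 0.904). Restricted replicate 2 of DNAJC8 overlapped the normal pools.

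DNAJC30, a mitochondrial J protein linked to ATP synthase, had differences of the opposite sign. It was at 3.85, 3.64, 3.41 and 3.79 in phytase pools, 4.73, 4.07, 4.06 and 3.89 in restricted pools, and 3.64, 4.03, 3.94 and 3.78 in normal pools. All phytase pools lay below all restricted pools, by -0.52 ± 0.18 (SE, limma adjusted p = 0.519), and restricted replicate 1 was the highest of the 12. With 16 added before the logarithm the DNAJC30 difference was -0.26, and it was -0.33 in the smallest of the fits that left out 1 array. DNAJB5 had 2 rows. The brighter one was at 7.50, 7.49, 6.95 and 7.28 in phytase pools, 7.53, 7.61, 7.43 and 7.59 in restricted pools, and 7.51, 7.37, 7.68 and 7.61 in normal pools, a difference of -0.24 ± 0.13 (SE) between phytase and normal pools. Between restricted and normal pools the brighter DNAJB5 row differed by 0.00 ± 0.13 and the dimmer one by -0.34 ± 0.18 (SE).

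Among J proteins of the endoplasmic reticulum, which assist BiP, DNAJC3, DNAJB9 and DNAJC10 had their lowest mean in restricted pools. So did DNAJB14 of the endoplasmic reticulum membrane. DNAJB11 did not, and averaged 4.03 ± 0.25 in phytase, 4.12 ± 0.24 in restricted and 4.06 ± 0.29 in normal pools (SD, n = 4 each). DNAJC3, p58IPK, which also restrains the kinase PERK, was at 6.71, 6.38, 6.59 and 6.13 in phytase pools, 6.22, 6.11, 6.44 and 6.15 in restricted pools, and 6.45, 6.47, 6.51 and 6.58 in normal pools. All restricted pools lay below all normal pools, though 6.44 and 6.45 nearly met, with a difference of -0.27 ± 0.14 (SE). DNAJB9, ERdj4, a target of the unfolded protein response, was at 5.22, 5.19, 4.77 and 4.14 in phytase pools, 3.19, 4.19, 4.96 and 4.66 in restricted pools, and 4.79, 4.33, 5.47 and 5.33 in normal pools. Its restricted and normal difference of -0.73 ± 0.36 (SE) had an unadjusted p of 0.0648, with an SD of 0.61 between pools of a diet. It was larger than that of any other tested member with all 12 arrays, but was -0.38 without restricted replicate 1 and -0.17 without the 4 arrays with HINTW signal, where the PPID difference was larger, at -0.56 and -0.49. DNAJC10, a reductase of disulfides, and DNAJC1 had differences of -0.23 ± 0.20 and 0.00 ± 0.19 (SE), and DNAJB11 had a difference of 0.06 ± 0.18 (SE).

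Of the mitochondrial J proteins, DNAJC19 and DNAJC15, which belong to the protein import motor, had differences of -0.20 ± 0.19 and -0.18 ± 0.15 (SE) between restricted and normal pools, and the second row of DNAJC19 also gave -0.20. DNAJA3, the J partner of mitochondrial Hsp70, and DNAJC11, of the cristae complex, had differences of 0.05 ± 0.16 and -0.12 ± 0.23 (SE). DNAJB6, which keeps aggregation-prone proteins soluble and whose human gene is mutated in a limb-girdle muscular dystrophy, averaged 6.15 ± 0.15 in phytase, 5.82 ± 0.34 in restricted and 5.98 ± 0.12 in normal pools (SD, n = 4 each). DNAJC2, a J protein of the ribosome, had the widest spread of all members (SD 0.87 between pools of a diet). It was at 6.75, 6.49, 6.59 and 4.8 in phytase pools, 3.58, 5.71, 6.07 and 5.72 in restricted pools, and 6.08, 5.70, 5.76 and 5.25 in normal pools, so that restricted replicate 1 and phytase replicate 4 were the lowest of the 12. Both of these arrays carried HINTW signal, while phytase replicate 1 and restricted replicate 2, which carried it too, were not low.

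The other tested J proteins, DNAJB12, DNAJB13, DNAJC5, DNAJC6, DNAJC9, DNAJC13, DNAJC18, DNAJC21, DNAJC24, DNAJC25 and DNAJC27, had differences between -0.28 (DNAJC21) and 0.16 (DNAJB13) in restricted against normal pools, each with an interval that held 0. DNAJB8, DNAJC5B, DNAJC12, DNAJC14 and DNAJC17 were under the brightness limit, with means from 1.73 to 2.52.

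Neither heat shock factor had an unadjusted p under 0.05 in any of the 3 contrasts. HSF3 averaged 4.77 ± 0.10 in phytase, 4.79 ± 0.13 in restricted and 4.78 ± 0.16 in normal pools (SD, n = 4 each), and its difference between restricted and normal pools, 0.02, had an interval of -0.26 to 0.29. HSF2, a factor tied more to development than to heat, averaged 5.0 ± 0.27 in phytase, 4.66 ± 0.23 in restricted and 4.72 ± 0.32 in normal pools (SD, n = 4 each), and phytase and restricted pools differed by 0.34 ± 0.19 (SE). Transcript levels of these factors do not measure their activity. HSPB11, of intraflagellar transport, and HSPBAP1, a binding partner of HSPB1, were taken by symbol and are no chaperones, and their differences between restricted and normal pools were -0.02 and 0.02.

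According to RefSeq's gene table for GRCg7b, 5 tested members lie on the Z chromosome, of which female birds carry a single copy: DNAJA1, DNAJB5, DNAJC21, DNAJC25 and HSPB3. Their mean deviation was 0.18 and -0.39 in the phytase pools with HINTW signal (replicates 1 and 4) against 0.26 and -0.01 in the phytase pools without it. It was -0.28 and -0.22 in the restricted pools with the signal (replicates 1 and 2) against 0.24 and -0.21 in those without it, and -0.19 to 0.35 in normal pools. Pools with and without the signal overlapped through phytase replicate 1, at 0.18. The other pools with the signal lay below every pool without it, though -0.22 and -0.21 nearly met. A relation to the signal was not tested.

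Folding genes outside these families were described beside them. Of 60 listed co-chaperones, prefoldin subunits, endoplasmic reticulum folding enzymes and stress factors, 45 had a row and all 45 were tested, and 0 passed the adjusted threshold in any contrast. Between restricted and normal pools 29 of 45 were lower (50.9% of all transcript clusters), with a median of -0.06. At an unadjusted p under 0.05, 1 of 45 was lower (2.71% of all) and 1 higher (2.6% of all). GRPEL1, the exchange factor of mitochondrial Hsp70, differed by -0.31 ± 0.13 (SE) and FKBP5, an Hsp90 co-chaperone induced by glucocorticoids, by 0.74 ± 0.33 (SE). FKBP5 was at 5.12 in restricted replicate 3 and between 3.17 and 3.39 in the other restricted pools. Between phytase and restricted pools 22 of 45 were higher and 22 lower (48.3% and 51.2% of all transcript clusters). At an unadjusted p under 0.05, 2 of 45 were higher (5.03% of all). These were BAG3, the partner of HSPB8, by 0.26 ± 0.11 (SE) and PDIA4, a disulfide isomerase, by 0.47 ± 0.20 (SE). Between phytase and normal pools 28 of 45 were lower (49.9% of all). XBP1, a transcription factor of the unfolded protein response, had a difference of -0.42 ± 0.19 (SE). It was the 1 gene of the list lower at an unadjusted p under 0.05 (2.22% of all). In restricted replicate 1 the mean deviation of these 45 genes was -0.18, the lowest of the 12 pools.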

How the data were processed

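Each of 12 pools was hybridised to an Affymetrix array. The authors deposited log2 values for each transcript cluster and array. GCRMA and Affymetrix Expression Console are named in the submitters' processing notes, without version or role. The logarithm's base is not given in the sources used here. Values of 0.83 to 14.36 led to base 2. GCRMA draws dim signals toward a floor, so differences of dim genes are to be read with caution. The number of arrays limits the precision.

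Symbols are those of the platform annotation, and all 66 members carried the same symbol in RefSeq's table for GRCg7b. For 5 genes with several rows, the one with the highest 12-array mean was used. A row naming CCT2 together with another gene was not used. Titles gave the groups. Normal replicate 1 lacks a diet characteristic.

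Testing was limited to means reaching the 40th percentile (2.67): 12482 of 20804 transcript clusters and 59 of 66 members. DNAJC6, at 2.81, lay just inside and HSPA12A, at 2.54, just outside. With limma 3.58.1 in R 4.3.3, diet means were estimated from the 12 arrays, using an intensity trend, and p-values were adjusted by Benjamini-Hochberg over the tested transcript clusters. The procedure was tested on simulated data with each gene's mean and spread. Of 250 rows changed by 0.5 (log2) in restricted pools, 20.8% passed the adjusted threshold against normal pools. Of 250 rows changed by 1, it was 72.4%. The same simulated sets also held rows with larger changes, which loosens the Benjamini-Hochberg threshold for the smaller ones. Changed rows were drawn from the brighter rows, and the noise was independent between rows. These shares can therefore be higher than those that the real data would give. Members, classes, lists and alternatives were chosen with earlier results of these data known. Pool values are given for the 5 members with the smallest p in each contrast and for HSPA8, HSPA5, HSPD1, CRYAB, TCP1 and DNAJA1. HSP90AB1, HSP90B1, DNAJC2, DNAJC3 and DNAJB9 were added after their values were seen. Other folding genes are named where their unadjusted p was under 0.05.

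Same-numbered samples did not deviate together: the 12 pairwise correlations of deviations ran from -0.162 to 0.178, and 3 exceeded 0.1. The effect of filters, normalization, array weights, prior, a replicate block, an offset, the choice of rows and members, and arrays left out is given in the closing section.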

Additional observations from a re-analysis of the deposited data

Results flagged for a closer look

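In 72 groups of 4 pools, 1 held a value far from the others by Dixon's criterion, a criterion that chance meets in about 1 in 20 groups. DNAJB14 in restricted replicate 3 was at 3.91, while the other restricted pools lay between 3.53 and 3.59, and the gap was 0.842 of the group's range. The 72 groups did not cover every gene described here. DNAJC2 in phytase replicate 4, at 4.8, also lay far from the other phytase pools, at 6.49 to 6.75. FKBP5 in restricted replicate 3, at 5.12, lay far from the other restricted pools, at 3.17 to 3.39.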

How the results depend on the processing

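The count past an adjusted 0.05 in limma was 0 under each of the 23 alternatives, and the 15 differences named by the rule kept their sign in all that were run for them (lowest adjusted p 0.156). The 15 were chosen by the smallest p in these same arrays, and the alternatives reuse most or all of the arrays. A kept sign is therefore no independent support. The median difference over members ran from -0.16 to -0.09 in restricted against normal pools when 1 array was left out and was -0.04 without the 4 arrays with HINTW signal (-0.12 with all). In phytase against restricted pools it ran from 0.06 to 0.16 and was 0.07 (0.13 with all). In phytase against normal pools 0 members had an unadjusted p under 0.05 in the 12 arrays. The count was 4 with array weights and 1 with median centring. Dropping the 4 arrays with HINTW signal gave 2 in that contrast (3.39% of members, against 6.77% of all transcript clusters). Dropping them gave 3 in restricted against normal pools (5.08%, against 5.86% of all) and 3 over the 3 diets. With the replicate number as a block, the counts were 5 in restricted against normal, 6 in phytase against restricted, 2 in phytase against normal pools and 4 over the 3 diets, and since the numbers do not pair the samples this is no test of pairing; 2 of 12 arrays correlated best with one of their own number. Leaving out 1 array at a time gave counts of 2 to 9 in restricted against normal pools (9 without restricted replicate 3, where 8.6% of all transcript clusters were counted, against 5.3% with all arrays), 5 to 12 in phytase against restricted pools (12 without phytase replicate 4 and 10 without restricted replicate 3, where 12.1% and 13.8% of all were counted, against 8.83%), 0 to 3 in phytase against normal pools (3 without normal replicate 1 or restricted replicate 3, with 4.97% and 5.05% of all, against 4.32%) and 3 to 10 over the 3 diets (10 without restricted replicate 3). For array weights, median centring, the block and the F test with arrays left out, the share of all transcript clusters is not given. Those counts are therefore not read as a result about the members. The number of members below 0 in restricted against normal pools ran from 37 to 49. These sign counts were added after seeing the data.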
